A study of Homo sapiens with 6 samples.

Results

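Expression of 33 genes of the NF-κB pathway was examined in RNA sequencing of cells labelled HepG2, a human cell line derived from a liver cancer. The genes were chosen by name for their role: NF-κB subunits, inhibitors, kinases, adaptors and targets, without the CXC chemokines. The choice was made with earlier results of these data known. All 33 are among the 27605 genes of the deposited table, and 30 of them had the mean of at least 0.5 FPKM (fragments mapped to a gene, scaled to transcript length and library size) over the 6 libraries that was asked for testing. The cells carried either a control hairpin (shNC, labelled WT, n = 3 libraries) or a hairpin against ARHGEF2 delivered by lentivirus (shARHGEF2, labelled ARHGEF2 knockdown, n = 3 libraries), and were grown in serum-containing DMEM with antibiotics. Neither group is labelled with an inflammatory stimulus. The labels do not say whether the libraries of a group came from separate cultures or infections, or whether the shARHGEF2 libraries share 1 hairpin, so the p-values measure the spread between these libraries, which may be technical. ARHGEF2 encodes an exchange factor that activates the small GTPase RHOA.

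NF-κB is a family of dimeric transcription factors that are held in the cytoplasm by IκB proteins. Receptors for TNF, interleukin-1 or microbial products signal through TRAF and RIPK adaptors to the IκB kinase (IKK) complex, which marks IκB for degradation and frees the dimer. In the slower non-canonical branch, the kinase MAP3K14 (NIK) accumulates and drives the processing of NFKB2, which pairs with RELB. Many genes of the pathway are themselves targets, so that the factor induces its own inhibitors.

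Promoters of members are shown first because several of these genes are themselves NF-κB targets. RefSeq promoters on GRCh38.p14, from 250 bases before to 50 bases after a transcription start, were found for 28 of the 33 members (49 windows). RELB, NFKBIE, IKBKB, RIPK2 and CSF1 had no entry. A match to the 10-base NF-κB consensus on either strand was present in at least 1 window of 13 of the 28 members and in 32.7% of their windows, against 5.91% of all 35116 windows of the same length. The shorter word GGAAATTCC, searched on both strands, was in at least 1 window of 6 of the 28 members (NFKB1, REL, NFKBIA, NFKBIB, NFKBIZ and ICAM1). It was in 0.46% of all windows, a share of windows that is not directly comparable with a count of members. In all of these 6 members but ICAM1 the word overlapped the longer consensus. The members were chosen by name for roles in the pathway and include known targets, so their share is a description. The 5 windows below belong to the member with the smallest p between the groups (ICAM1), to 2 inhibitors of the family (NFKBIA and NFKBIB), to the subunit with the highest level (NFKB2) and to the ubiquitin-editing brake TNFAIP3. They run 5′ to 3′ on the strand of the gene, and capitals mark matches to the consensus or to the shorter word. NFKBIB had a further window without a match, and NFKB2 had further windows with 0 and 2 matches, which are not shown.
ICAM1 (chr19:10270870-10271169, plus strand): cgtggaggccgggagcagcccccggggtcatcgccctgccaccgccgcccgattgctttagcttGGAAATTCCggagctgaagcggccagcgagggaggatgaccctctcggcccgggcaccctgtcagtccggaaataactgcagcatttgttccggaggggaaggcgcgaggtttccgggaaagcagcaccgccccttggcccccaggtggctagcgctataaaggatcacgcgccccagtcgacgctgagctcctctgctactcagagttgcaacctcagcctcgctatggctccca
NFKBIA (chr14:35404700-35404999, minus strand): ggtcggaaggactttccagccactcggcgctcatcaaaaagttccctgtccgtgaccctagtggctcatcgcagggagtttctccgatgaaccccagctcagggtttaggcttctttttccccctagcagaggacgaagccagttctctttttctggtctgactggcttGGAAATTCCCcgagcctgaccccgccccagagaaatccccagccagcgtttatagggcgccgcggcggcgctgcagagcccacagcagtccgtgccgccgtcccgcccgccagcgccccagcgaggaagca
NFKBIB (chr19:38899719-38900018, plus strand): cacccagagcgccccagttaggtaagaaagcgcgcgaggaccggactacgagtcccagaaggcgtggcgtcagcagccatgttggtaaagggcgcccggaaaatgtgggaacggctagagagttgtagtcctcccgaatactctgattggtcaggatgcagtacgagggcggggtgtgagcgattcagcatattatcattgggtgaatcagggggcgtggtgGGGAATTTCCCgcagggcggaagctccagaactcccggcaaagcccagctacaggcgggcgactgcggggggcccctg
NFKB2 (chr10:102394328-102394627, plus strand): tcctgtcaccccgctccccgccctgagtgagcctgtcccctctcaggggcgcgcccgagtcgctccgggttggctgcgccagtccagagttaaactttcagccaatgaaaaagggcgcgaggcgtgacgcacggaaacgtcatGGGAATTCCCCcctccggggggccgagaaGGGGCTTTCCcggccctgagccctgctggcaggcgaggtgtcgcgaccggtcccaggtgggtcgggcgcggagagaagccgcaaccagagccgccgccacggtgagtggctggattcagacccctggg
TNFAIP3 (chr6:137867009-137867308, plus strand): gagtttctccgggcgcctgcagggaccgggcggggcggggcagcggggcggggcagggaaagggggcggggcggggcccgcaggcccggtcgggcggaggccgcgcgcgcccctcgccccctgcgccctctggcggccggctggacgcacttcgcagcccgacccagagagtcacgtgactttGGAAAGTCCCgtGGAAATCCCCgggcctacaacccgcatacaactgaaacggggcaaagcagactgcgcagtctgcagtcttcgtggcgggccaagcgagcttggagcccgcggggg
In ICAM1 the word begins 186 bases before the start and no match to the longer consensus was found in the window. In NFKBIA the same word begins 81 bases before the start, in TNFAIP3 the matches begin 67 and 55 bases before it, and in NFKB2 3 matches lie between 107 and 78 bases before it. A match is a stretch of letters and not a measured binding site.

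The libraries were estimated at 20046412 to 23058863 read pairs in shNC and 20369735 to 23290608 in shARHGEF2 from the spacing of low FPKM values, a rough estimate since at most 41.2% of these values lay within 0.1 of a whole pair, where 20% would by chance. ARHGEF2 itself (ENSG00000116584, chromosome 1 of GRCh38 from 155946851 to 156007070) had 13.0, 14.4 and 13.9 FPKM in shNC and 4.25, 4.0 and 4.82 FPKM in shARHGEF2 replicates 1 to 3. Every shARHGEF2 library was below every shNC library (log2 fold change -1.47, standard error 0.11, adjusted p = 0.00244 in limma). The labelled cell type was not borne out by its markers: 4 of 10 hepatocyte genes had values here (AFP, APOA1, SERPINA1 and HNF4A), at no more than 0.248 FPKM in any library, and the other 6 were not analysed here. Of 8 leukocyte markers 7 were listed. CD68, a lysosomal protein that is not restricted to leukocytes, was the one above 1 FPKM, the other 6 were at 0.278 FPKM or less, and the summed level of the list was 60.8 to 88.1 FPKM in shNC and 75.5 to 85.9 FPKM in shARHGEF2. The 3 endothelial markers listed summed to 0.561 to 0.64 FPKM and 0.775 to 0.866 FPKM, with CDH5 at 0.0246 FPKM or less, and the 4 fibroblast markers to 8.89 to 9.63 FPKM and 10.4 to 11.9 FPKM, the latter mostly COL1A1 and with COL1A2 at 0.0453 FPKM or less. Both of these summed levels were higher in shARHGEF2, and their part in the results below was not tested. Libraries also differed along transcript GC content, where Spearman's rho between the deviation of a gene from its mean and its GC content, taken over genes that are no independent replicates, ran from -0.465 in shNC replicate 2 to 0.57 in shARHGEF2 replicate 1. The tested members had a median GC content of 54.3%, against 51.6% over all genes tested.

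No member passed the threshold between shNC and shARHGEF2 cells (adjusted p under 0.05 in limma on log2(FPKM + 1), 0 of 30, where 0.277% of all 12291 genes tested were called). Without adjustment, 8 of 30 members (26.7%) had a limma p under 0.05, against 13.7% of all genes tested. Of these 8, ICAM1, SOD2, BIRC2, TRAF2, NFKBIB, NFKBIE and IRAK2 were higher in shARHGEF2 cells (8.1% of all genes tested were so) and MAP3K14 was lower (5.55%). The groups did not overlap in 7 of the 30 members, all with shARHGEF2 above shNC, where 11.3% of all genes tested lay that way and 9.17% the other way. Fold changes were above 0 for 23 members and below 0 for 7 (21 and 9 after quantile normalization, 22 and 8 with the GC content trend removed, and with 1 library left out from 18 and 11 without shARHGEF2 replicate 2 to 25 and 5 without shARHGEF2 replicate 1), with a median log2 fold change of 0.11 against -0.0016 over all genes tested, of which 49.6% were above 0. The count of 8 depended on the libraries. It was 12 without shNC replicate 3, 6 without shARHGEF2 replicate 1, 5 without shNC replicate 1 or without shARHGEF2 replicate 2 or 3, and 4 without shNC replicate 2. With the GC content trend removed the count was 7. The share of all genes tested was 16% without shNC replicate 3. It was not taken for the other fits with 1 library left out or with the GC content trend removed, so their counts have no such comparison.

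**Figure D1:**
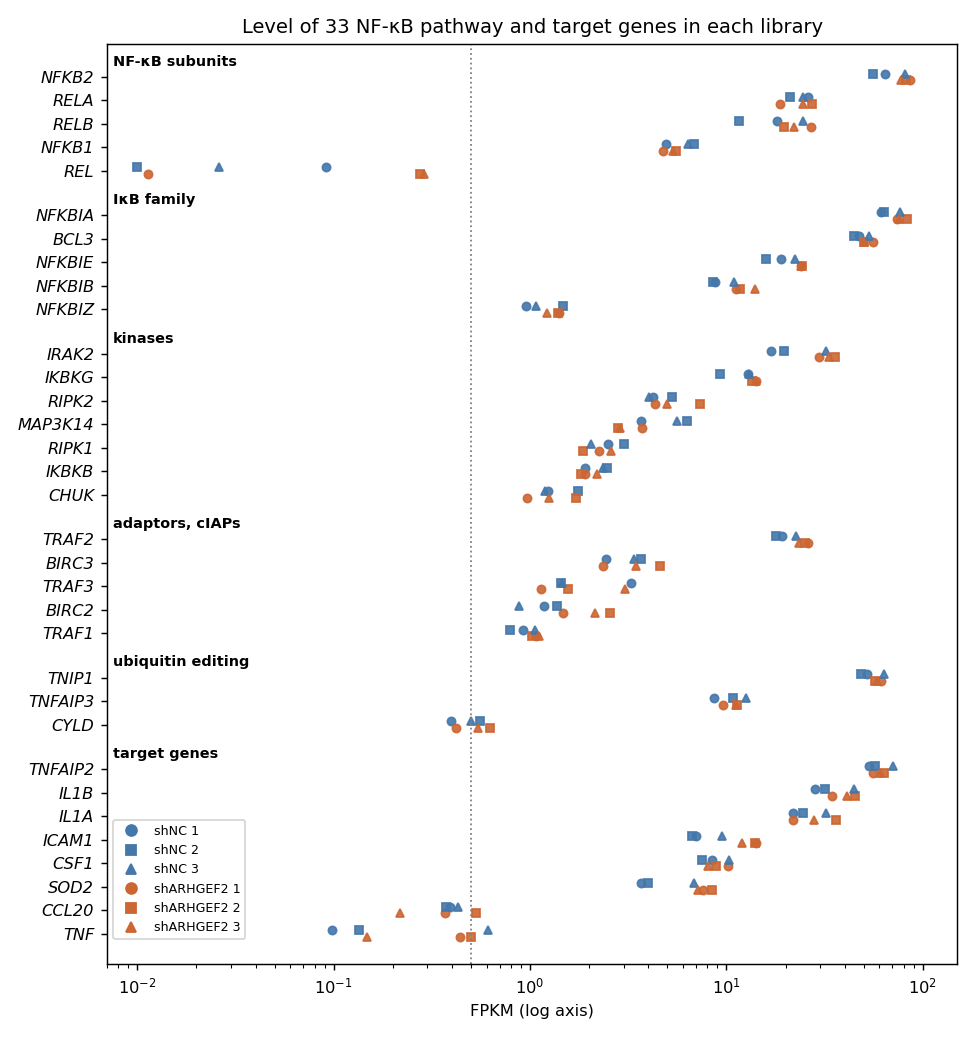
FPKM (log axis) of the 33 members in each of 6 libraries, grouped by role and ordered by mean level, with shNC in blue and shARHGEF2 in orange and the marker shape giving the replicate. The dotted line marks 0.5 FPKM, below which the means of REL, CCL20 and TNF lay and above which the other 30 were tested.

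The DNA-binding subunits differed widely in level, and none had an unadjusted p under 0.05. NFKB2, the precursor of p52, was the highest of the subunits with 64.5, 55.5 and 81.4 FPKM in shNC and 85.6, 82.2 and 77.0 FPKM in shARHGEF2 replicates 1 to 3. The shARHGEF2 libraries were above shNC replicates 1 and 2 but not all of them above shNC replicate 3 (log2 fold change 0.29, standard error 0.13, adjusted p = 0.388 in limma). RELB, the usual partner of p52, had 18.2, 11.5 and 24.5 FPKM in shNC and 26.9, 19.7 and 22.0 FPKM in shARHGEF2 replicates 1 to 3. Its 3 shNC values spanned more than its 3 shARHGEF2 values and overlapped them (log2 fold change 0.37, standard error 0.25, adjusted p = 0.579 in limma). RELA, the activating subunit of the canonical dimer, had 26.1, 21.1 and 24.5 FPKM in shNC and 18.8, 27.3 and 24.6 FPKM in shARHGEF2 replicates 1 to 3, with no order between the groups (log2 fold change -0.03, standard error 0.15, adjusted p = 0.959 in limma). NFKB1, the precursor of p50, had 4.92, 6.81 and 6.38 FPKM in shNC and 4.76, 5.51 and 5.32 FPKM in shARHGEF2 replicates 1 to 3. These values overlapped as well, with the higher ones in shNC replicates 2 and 3 (log2 fold change -0.17, standard error 0.13, adjusted p = 0.625 in limma). REL, a subunit best known from lymphocytes, was at 0.290 FPKM or less in every library and was not tested.

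The IκB family and its relatives all had fold changes above 0, here and in the 13 alternatives, and 2 of the 5 had a p under 0.05 before adjustment. Over all genes tested, 49.6% had fold changes above 0 and 13.7% had an unadjusted p under 0.05. NFKBIB, which encodes IκBβ and lies on chromosome 19, had 8.74, 8.53 and 11.0 FPKM in shNC and 11.1, 11.8 and 14.0 FPKM in shARHGEF2 replicates 1 to 3. NFKBIE, which encodes IκBε, had 19.0, 16.0 and 22.3 FPKM in shNC and 24.0, 24.3 and 23.9 FPKM in shARHGEF2 replicates 1 to 3. In both genes the lowest shARHGEF2 library was above the highest shNC library, by 0.187 FPKM in NFKBIB and 1.59 FPKM in NFKBIE (two-sided exact permutation test, p = 0.1 for each, the smallest that 3 libraries against 3 allow). Neither passed adjustment (log2 fold change 0.36, standard error 0.13, adjusted p = 0.283 in limma for NFKBIB, and log2 fold change 0.33, standard error 0.12, adjusted p = 0.284 in limma for NFKBIE). NFKBIB overlaps SIRT2 on the opposite strand, which had a mean of 9.83 FPKM, and whether counting used the strand is not given in the sources used here. NFKBIA, the rapidly induced inhibitor IκBα and a classic feedback target, had 61.1, 63.5 and 76.6 FPKM in shNC and 74.1, 83.0 and 75.9 FPKM in shARHGEF2 replicates 1 to 3. The shARHGEF2 libraries were above shNC replicates 1 and 2, and shNC replicate 3 lay among them (log2 fold change 0.21, standard error 0.11, adjusted p = 0.425 in limma). BCL3, a nuclear IκB relative that binds p50 and p52 dimers, had 47.3, 44.6 and 53.2 FPKM in shNC and 56.1, 50.1 and 50.0 FPKM in shARHGEF2 replicates 1 to 3. NFKBIZ, another nuclear relative, was low, with 0.950, 1.47 and 1.07 FPKM in shNC and 1.41, 1.38 and 1.22 FPKM in shARHGEF2 replicates 1 to 3. The groups overlapped in both, and the 95% intervals of their log2 fold changes were -0.12 to 0.33 for BCL3 and -0.17 to 0.40 for NFKBIZ.

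**Figure D2:**
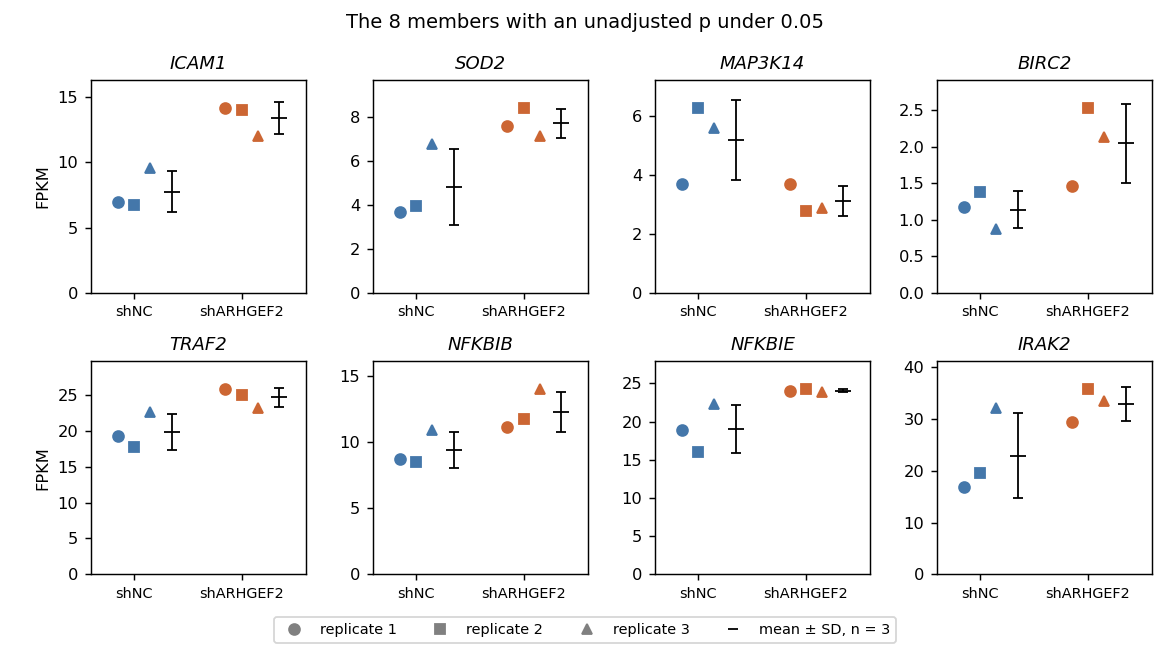
FPKM (linear axis from 0) in each library for the 8 members with an unadjusted limma p under 0.05, with black bars for the mean ± SD of 3 libraries. The groups overlapped in MAP3K14 and IRAK2 and not in the other 6, and for ICAM1, SOD2, TRAF2, NFKBIB, NFKBIE and IRAK2 the shNC library nearest to the shARHGEF2 libraries was replicate 3.

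Among the kinases, IRAK2 and MAP3K14 stood out in opposite directions, both short of the adjusted threshold. IRAK2 (ENSG00000134070, chromosome 3 of GRCh38 from 10164865 to 10243743), a kinase-like protein of the interleukin-1 and Toll-like receptor complex, had 16.9, 19.6 and 32.2 FPKM in shNC and 29.4, 35.8 and 33.5 FPKM in shARHGEF2 replicates 1 to 3. The control libraries themselves were split, with replicate 3 at 1.77 times the mean of the other 2 and within the range of the shARHGEF2 libraries (log2 fold change 0.55, standard error 0.22, adjusted p = 0.338 in limma). MAP3K14 (ENSG00000006062, chromosome 17 of GRCh38 from 45263119 to 45317145), the NIK kinase of the non-canonical branch, had 3.68, 6.30 and 5.59 FPKM in shNC and 3.70, 2.80 and 2.87 FPKM in shARHGEF2 replicates 1 to 3. It was the lone member with p under 0.05 that was lower in shARHGEF2 cells, with a ratio of means of 0.601, and shNC replicate 1 overlapped shARHGEF2 replicate 1 (log2 fold change -0.57, standard error 0.18, adjusted p = 0.230 in limma). The fold change stayed below 0 with each library left out, from -0.76 to -0.44, and the adjusted p then lay between 0.181 and 0.480 in limma.

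The 3 subunits of the IKK complex showed no call. IKBKG, the regulatory subunit NEMO, had 12.8, 9.22 and 13.0 FPKM in shNC and 14.2, 13.4 and 14.1 FPKM in shARHGEF2 replicates 1 to 3, so that every shARHGEF2 library was above every shNC library, replicates 1 and 3 of shNC lying closest (log2 fold change 0.25, standard error 0.14, adjusted p = 0.466 in limma). IKBKG has a near-identical partial copy, IKBKGP1, listed with a mean of 20.4 FPKM, so the share of reads that belongs to IKBKG is uncertain. IKBKB, the catalytic subunit IKKβ, had 1.9, 2.45 and 2.35 FPKM in shNC and 1.9, 1.82 and 2.20 FPKM in shARHGEF2 replicates 1 to 3. CHUK, the catalytic subunit IKKα, had 1.23, 1.76 and 1.19 FPKM in shNC and 0.963, 1.72 and 1.25 FPKM in shARHGEF2 replicates 1 to 3. Both overlapped between the groups, and their log2 fold changes had 95% intervals of -0.40 to 0.16 and -0.41 to 0.30. The span of CHUK overlaps that of ERLIN1 on the same strand (mean 12 FPKM). RIPK1, the kinase that scaffolds TNF receptor signalling, had 2.50, 3.01 and 2.05 FPKM in shNC and 2.24, 1.87 and 2.59 FPKM in shARHGEF2 replicates 1 to 3. RIPK2, the kinase downstream of NOD receptors, had 4.22, 5.28 and 4.01 FPKM in shNC and 4.33, 7.34 and 4.97 FPKM in shARHGEF2 replicates 1 to 3. The groups overlapped in each, and the highest RIPK2 value, in shARHGEF2 replicate 2, stood well above the other 5 (log2 fold change 0.23, standard error 0.18, adjusted p = 0.632 in limma).

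The TRAF and cIAP adaptors, which carry ubiquitin signals from the receptors, included 2 of 5 members with p under 0.05, against 13.7% of all genes tested. TRAF2 had 19.3, 17.8 and 22.7 FPKM in shNC and 25.9, 25.0 and 23.3 FPKM in shARHGEF2 replicates 1 to 3, and its shARHGEF2 libraries were all higher, the closest by 0.625 FPKM (log2 fold change 0.31, standard error 0.11, adjusted p = 0.277 in limma). BIRC2, which encodes the ubiquitin ligase cIAP1, had 1.17, 1.38 and 0.878 FPKM in shNC and 1.47, 2.54 and 2.14 FPKM in shARHGEF2 replicates 1 to 3. Each shARHGEF2 library was above each shNC library although the shARHGEF2 values were widely spread (log2 fold change 0.50, standard error 0.16, adjusted p = 0.234 in limma), and the ratio of means was 1.79, the largest among the tested members. BIRC3, which encodes cIAP2 and is a stronger textbook NF-κB target than BIRC2, had 2.43, 3.68 and 3.39 FPKM in shNC and 2.36, 4.60 and 3.45 FPKM in shARHGEF2 replicates 1 to 3. Its groups overlapped over most of their range (log2 fold change 0.08, standard error 0.20, adjusted p = 0.906 in limma), and whether the fold changes of BIRC2 and BIRC3 differ was not tested. TRAF3, the adaptor that keeps MAP3K14 low, had 3.28, 1.44 and 1.45 FPKM in shNC and 1.14, 1.55 and 3.05 FPKM in shARHGEF2 replicates 1 to 3. A single library of each group, replicate 1 of shNC and replicate 3 of shARHGEF2, was above 3 FPKM and the other 4 were at 1.55 FPKM or less (log2 fold change -0.07, standard error 0.30, adjusted p = 0.954 in limma). TRAF1, an inducible adaptor, was at 0.792 to 1.06 FPKM in shNC and 1.02 to 1.11 FPKM in shARHGEF2, and its groups overlapped (log2 fold change 0.11, standard error 0.11, adjusted p = 0.731 in limma).

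The ubiquitin-editing brakes of the pathway showed small differences that lay within the spread of the libraries. TNFAIP3, the feedback inhibitor A20, had 8.69, 10.8 and 12.6 FPKM in shNC and 9.61, 11.3 and 11.2 FPKM in shARHGEF2 replicates 1 to 3, with the lowest and the highest of the 6 values both in shNC. Its group means were 10.7 ± 1.96 FPKM in the shNC group (SD, n = 3) and 10.7 ± 0.961 FPKM in the shARHGEF2 group (SD, n = 3), and its log2 fold change of 0.01 had a 95% interval of -0.31 to 0.33. TNIP1, the A20-binding protein ABIN1, had 52.0, 48.2 and 63.4 FPKM in shNC and 61.4, 56.8 and 58.3 FPKM in shARHGEF2 replicates 1 to 3. Here shNC replicate 3 was the highest of the 6 libraries (log2 fold change 0.12, standard error 0.11, adjusted p = 0.707 in limma). CYLD, a deubiquitinase, was at 0.395 to 0.627 FPKM over the 6 libraries, close to the limit for testing (log2 fold change 0.04, standard error 0.11, adjusted p = 0.909 in limma).

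Of the 8 members that act as outputs of the pathway, 6 were tested. All 6 had fold changes above 0, as had 49.6% of all genes tested. ICAM1 and SOD2 had p under 0.05, as had 13.7% of all genes tested. With 1 library left out, 4 to 6 outputs were above 0, TNFAIP2, IL1A or CSF1 being below 0 in some of these fits. TNFAIP2 was also below 0 after quantile normalization and with the GC content trend removed. ICAM1 (ENSG00000090339, chromosome 19 of GRCh38 from 10270835 to 10286615), an adhesion molecule for leukocytes and a standard NF-κB reporter gene, had 6.99, 6.71 and 9.53 FPKM in shNC and 14.2, 14.0 and 12.0 FPKM in shARHGEF2 replicates 1 to 3. Every shARHGEF2 library was above every shNC library, the group means were 7.74 ± 1.55 FPKM in the shNC group (SD, n = 3) and 13.4 ± 1.21 FPKM in the shARHGEF2 group (SD, n = 3), and the ratio was 1.73 (log2 fold change 0.73, standard error 0.14, adjusted p = 0.104 in limma). It ranked 81 by p among the 12291 genes tested, and its log2 fold change lay between 0.65 and 0.87 with each library left out. SOD2 (ENSG00000112096, chromosome 6 of GRCh38 from 159669057 to 159745186), the mitochondrial superoxide dismutase, had 3.69, 3.97 and 6.80 FPKM in shNC and 7.61, 8.45 and 7.14 FPKM in shARHGEF2 replicates 1 to 3. Again the groups did not overlap, but shNC replicate 3 was at 1.77 times the mean of shNC replicates 1 and 2 and came within 0.344 FPKM of the lowest shARHGEF2 library (log2 fold change 0.62, standard error 0.19, adjusted p = 0.216 in limma). SOD2 overlaps WTAP on the opposite strand (mean 3.56 FPKM).

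The other 4 tested outputs had no unadjusted p under 0.05. IL1B, interleukin-1β, had 28.2, 31.8 and 44.4 FPKM in shNC and 34.5, 45.2 and 40.9 FPKM in shARHGEF2 replicates 1 to 3. IL1A, interleukin-1α, had 21.8, 24.6 and 32.0 FPKM in shNC and 21.7, 36.1 and 27.8 FPKM in shARHGEF2 replicates 1 to 3. Both genes were detected in every library of either group, the lowest of the 6 values was in shNC replicate 1 for IL1B and in shARHGEF2 replicate 1 for IL1A, and the groups overlapped (log2 fold change 0.22, standard error 0.17, adjusted p = 0.632 in limma for IL1B, and log2 fold change 0.11, standard error 0.20, adjusted p = 0.867 in limma for IL1A). CSF1, the macrophage growth factor, had 8.47, 7.49 and 10.3 FPKM in shNC and 10.2, 8.79 and 8.09 FPKM in shARHGEF2 replicates 1 to 3. TNFAIP2, a TNF-induced gene, had 53.0, 57.1 and 70.1 FPKM in shNC and 55.8, 63.2 and 60.7 FPKM in shARHGEF2 replicates 1 to 3. In these 2 genes the highest library was shNC replicate 3, and the log2 fold changes were 0.04 and 0.00, with 95% intervals of -0.27 to 0.36 and -0.26 to 0.27. CCL20 (0.371 to 0.428 FPKM in shNC and 0.218 to 0.533 FPKM in shARHGEF2) and TNF (0.0985 to 0.614 FPKM and 0.148 to 0.5 FPKM) were not tested, and the groups overlapped in each.

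**Figure D3:**
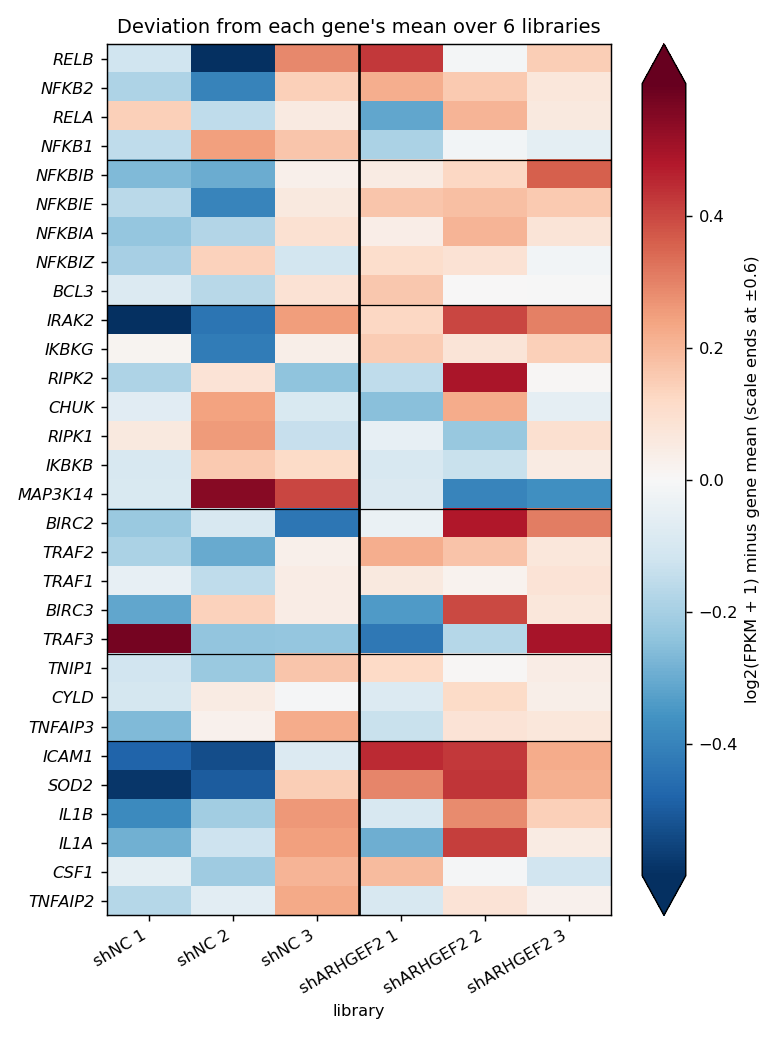
Deviation of log2(FPKM + 1) from the mean of each gene over the 6 libraries, for the 30 tested members in rows by role and the libraries in columns, blue below and red above the mean, with colours saturating at ±0.6. Above the mean were 4 and 10 members in shNC replicates 1 and 2, 22 in shNC replicate 3, and 15, 23 and 24 in shARHGEF2 replicates 1 to 3.

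The members also differed in level among the control libraries. Of the 30 tested members, 4 were above their own mean in shNC replicate 1, 10 in shNC replicate 2 and 22 in shNC replicate 3, and 15, 23 and 24 were in shARHGEF2 replicates 1 to 3. The median deviation of the 30 tested members from their own means was -0.17 and -0.16 on the log2 scale in shNC replicates 1 and 2, but 0.07 in shNC replicate 3. In shARHGEF2 replicates 1 to 3 it was 0.00, 0.12 and 0.07. Over all genes tested the medians lay between -0.06 and 0.06, with -0.01 in shNC replicate 3. Replicate 3 was the highest of the shNC libraries for 18 of 30 members (60.0%) and the lowest for 4, and it was the highest for 29.2% of all genes tested. All 6 tested outputs and 4 of 5 inhibitors were among these 18, as were 2 of 4 subunits and 2 of 7 kinases. All 3 shARHGEF2 libraries were above both shNC replicates 1 and 2 for 15 of 30 members, and for 18.2% of all genes tested. This count sets shNC replicate 3 apart because of its level in these same members, which by itself raises their count. The members are also not independent of each other, so these shares are descriptions.

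Leaving out shNC replicate 3 changed the calls. ICAM1 (log2 fold change 0.87, adjusted p = 0.0382 in limma), SOD2 (0.85, adjusted p = 0.0438 in limma) and IRAK2 (0.82, adjusted p = 0.0438 in limma) were then called, 3 of 30 members where 0.828% of all genes tested were, and 12 members had an unadjusted p under 0.05, where 16% of all genes tested did. This fit compares 2 shNC with 3 shARHGEF2 libraries. In ICAM1, SOD2 and IRAK2 the library left out was the highest of the shNC group, so leaving it out could only raise their fold changes. The groups come from the labels, which give no reason to set that library aside, and no member was called when any other library was left out.

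**Figure D4:**
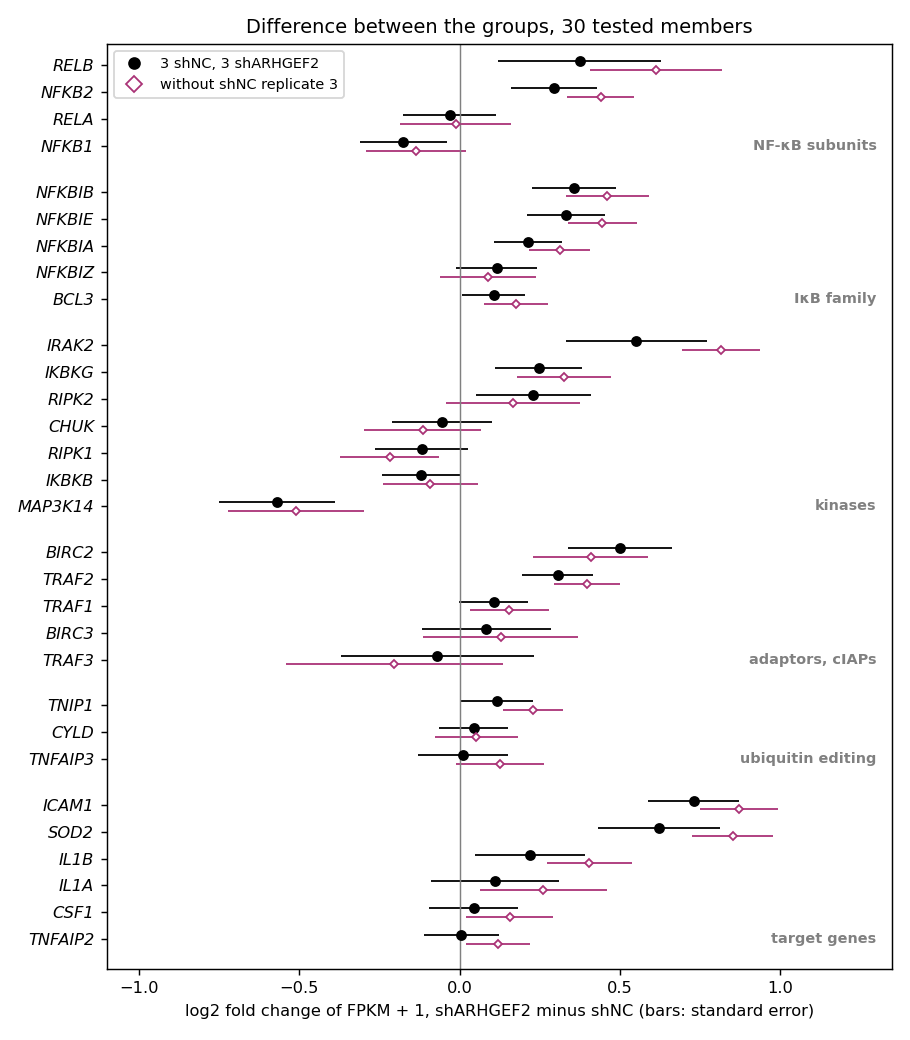
Log2 fold change of FPKM + 1 (shARHGEF2 minus shNC) with its standard error for the 30 tested members by role, with black circles for all 6 libraries and open diamonds without shNC replicate 3. ICAM1, SOD2, IRAK2 and BIRC2 lay at 0.50 or more and MAP3K14 at -0.57 with all libraries, and without shNC replicate 3 IRAK2, SOD2 and ICAM1 moved to between 0.82 and 0.87.

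The rest of the pathway was read from 2 further lists, both drawn up with earlier results of these data known. Of 34 receptors, adaptors, kinases and ligases that act upstream of NF-κB, 22 were tested and none was called in limma, while 1 (4.5%) had an unadjusted p under 0.05, against 13.7% of all genes tested. Fold changes of this list were above 0 for 5 genes (22.7%, against 49.6% of all genes tested) and below 0 for 17, with a median of -0.03, but for 10 and 12 without shNC replicate 3 and for 9 and 11 of 20 tested without shNC replicate 2. The gene with p under 0.05 was RNF31, which encodes the catalytic subunit HOIP of the linear ubiquitin ligase, with 3.88, 7.48 and 3.05 FPKM in shNC and 3.50, 1.80 and 1.86 FPKM in shARHGEF2 replicates 1 to 3. The groups overlapped and shNC replicate 2 was far above the rest (log2 fold change -0.74, standard error 0.31, adjusted p = 0.356 in limma). RNF31 overlaps PSME2 on the opposite strand (mean 27 FPKM) and a further listed gene on its own strand (mean 10.9 FPKM).

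Of 25 other NF-κB targets outside the CXC chemokines, 16 were tested, none was called in limma and 6 (37.5%) had an unadjusted p under 0.05, against 13.7% of all genes tested. Of these, 5 were higher in shARHGEF2 cells, the direction of 8.1% of all genes tested, and 1 was lower, the direction of 5.55%. The list was drawn up with earlier results of these data known, so these shares are descriptions. IER3, an early-response survival gene, had 381, 340.3 and 517 FPKM in shNC and 668, 705 and 659 FPKM in shARHGEF2 replicates 1 to 3, a ratio of means of 1.64 (log2 fold change 0.73, standard error 0.14, adjusted p = 0.105 in limma). As in ICAM1, the groups did not overlap and shNC replicate 3 was the highest control library. IER3 was called without that library (adjusted p = 0.0172 in limma). CCL5, a chemokine for T cells and monocytes, had 262, 261 and 289 FPKM in shNC and 353, 328 and 368 FPKM in shARHGEF2 replicates 1 to 3, with no overlap (log2 fold change 0.37, standard error 0.09, adjusted p = 0.127 in limma). EBI3, a subunit of interleukin-27 and interleukin-35, had 7.41, 6.46 and 7.41 FPKM in shNC and 11.3, 9.88 and 9.66 FPKM in shARHGEF2 replicates 1 to 3, also with no overlap (log2 fold change 0.48, standard error 0.11, adjusted p = 0.127 in limma). ZC3H12A, an RNase that degrades inflammatory mRNAs, and CSF2, the growth factor GM-CSF, were the remaining 2 higher genes (log2 fold change 0.21, standard error 0.09, adjusted p = 0.345 in limma and log2 fold change 0.60, standard error 0.25, adjusted p = 0.352 in limma), and the groups of CSF2 overlapped. BCL2L1, the survival gene of BCL-XL, was the lower one, with 39.7, 37.3 and 39.4 FPKM in shNC and 34.1, 29.5 and 32.4 FPKM in shARHGEF2 replicates 1 to 3, and its groups did not overlap (log2 fold change -0.27, standard error 0.09, adjusted p = 0.249 in limma). The count of 6 was 3 without shARHGEF2 replicate 2 and 4 or more without any other library. Among these fits the share of all genes tested was taken only without shNC replicate 3 (16%).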

How the data were processed

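RNA was sequenced from 3 shNC and 3 shARHGEF2 libraries of poly(A) RNA. The deposited values are FPKM per gene and library, made by the authors, whose processing notes name cutadapt 1.9, HISAT2 2.0.4, UMI-tools, StringTie 1.3.4d, DESeq2, edgeR and the build hg19 without giving their roles. The table also holds fold changes, p-values and adjusted p-values of the authors' comparison, which were not used. Depth is not recorded beside FPKM, and was estimated from values of genes with 1 transcript of at least 600 nt.

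Groups were compared with limma 3.58.1 in R 4.3.3 (statmod 1.5.0) on log2(FPKM + 1), with trended and robust variances, where the mean over the libraries reached 0.5 FPKM. This scale understates the change of low genes. Benjamini-Hochberg adjustment ran over all genes tested, with calls at an adjusted p under 0.05. FPKM are not counts, so no count test was run. Exact permutation tests of single genes used SciPy 1.17.1. Gene positions and GC content came from GENCODE 29 on GRCh38, joined by identifier, where 94.7% of listed transcripts were found. No coordinates were taken from hg19. The fit was also run on simulated data with independent noise for each gene and library. These held no library-wide trend such as that along GC content, so they do not show how the fit behaves under one. The members, the lists and the tests were chosen with earlier results of these data known. Values in each library are given for tested members whose mean reached 1 FPKM, and of the further lists those with the smallest p under 0.05 are named, at most 6 a list. The alternatives tried were a pseudocount of 0.1, a replicate block, other filters, quantile normalization, plain variances, each library left out, and, added after the data were seen, subtraction of each library's loess curve over GC content (span 0.3).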

Additional observations from a re-analysis of the deposited data

How the results depend on the processing

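Of the 30 tested members, 22 kept the sign of their fold change in every alternative that tested them and 8 changed it in at least 1. With 1 library left out, the log2 fold change ranged from -0.142 to 0.117 for RELA, -0.179 to 0.057 for CHUK, -0.335 to 0.200 for TRAF3, -0.094 to 0.274 for BIRC3, -0.119 to 0.126 for TNFAIP3, -0.079 to 0.120 for TNFAIP2, -0.068 to 0.286 for IL1A and -0.051 to 0.157 for CSF1. After quantile normalization TNFAIP3 was at -0.003 and TNFAIP2 at -0.025, and TNFAIP2 was at -0.052 with the GC content trend removed. The cause of these changes of sign was not tested. No member was called except without shNC replicate 3, so that the number called ranged from 0 to 3 with 1 library left out, and the number at an unadjusted p under 0.05 from 4 to 12. Over all genes the 34 calls became 54 with at least 1 FPKM in 3 libraries, 19 after quantile normalization, 7 without trend and robust variances, 1 with no filter beyond a value above 0 (more genes tested), and 6 to 102 with 1 library left out. ARHGEF2 kept its log2 fold change of -1.47 but had an adjusted p of 0.0701 in limma with no such filter. Of the upstream list, 3 genes had an unadjusted p under 0.05 with the GC content trend removed and 0 to 4 with 1 library left out, and of the other targets 3 to 6 did. With 1 library left out, the share of all genes at an unadjusted p under 0.05 was taken only without shNC replicate 3 (16%). That share was not taken with the GC content trend removed, so the upstream count of 3 has no such comparison.

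Replicate numbers were tried as a block. The residuals of libraries with the same number correlated at 0.184, 0.159 and -0.105, and 4 of 6 libraries correlated best with their own number. These values do not settle whether the numbers are a pairing. The labels do not say so, and the main fit used no block. With the block 0 genes were called in limma over the whole table, where 1976 had an unadjusted p under 0.05 (1678 without the block), ARHGEF2 had a log2 fold change of -1.47 with an adjusted p of 0.0716 in limma, 8 members and 0 upstream genes had an unadjusted p under 0.05, and 9 other targets did against 6 without it, IL6, PTGS2 and CD83 being the further ones. REL, TNF and CCL20 stayed below the mean of 0.5 FPKM needed for testing, and were tested, and not called in limma, when that filter was dropped.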

Other observations

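Receptors of the upstream list differed widely in level, and those given here were picked out after their values were seen. TNFRSF1A, the main TNF receptor, had 79.4 ± 13.2 FPKM in the shNC group (SD, n = 3) and 76.0 ± 14.6 FPKM in the shARHGEF2 group (SD, n = 3), and TNFRSF12A, the receptor of TWEAK, had 135 ± 27.5 FPKM in the shNC group (SD, n = 3) and 153 ± 2.53 FPKM in the shARHGEF2 group (SD, n = 3). LTBR, the lymphotoxin receptor that feeds the non-canonical branch, had 30.8 ± 2.19 FPKM in the shNC group (SD, n = 3) and 30.4 ± 0.894 FPKM in the shARHGEF2 group (SD, n = 3). Other receptors of the TNF family were low: TNFRSF1B did not exceed 0.273 FPKM and CD40 did not exceed 0.0367 FPKM in any library, and TNFRSF11A had a mean of 0.790 FPKM. TLR1 to TLR6 did not exceed 0.309 FPKM in any library and IL1R1, the interleukin-1 receptor, did not exceed 0.169 FPKM. IRAK1, a kinase used by the interleukin-1 receptor and most Toll-like receptors, was abundant, with 164 ± 14.7 FPKM in the shNC group (SD, n = 3) and 164 ± 8.25 FPKM in the shARHGEF2 group (SD, n = 3). None of these genes had an unadjusted p under 0.05 among those tested.

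Secreted NF-κB targets also differed widely in level. CCL2, CSF3 and LTB had means of 0.305, 0.201 and 0.0718 FPKM over the 6 libraries, whereas IL6 had 53.7 ± 6.91 FPKM in the shNC group (SD, n = 3) and 44.8 ± 7.35 FPKM in the shARHGEF2 group (SD, n = 3) (log2 fold change -0.26, standard error 0.14, adjusted p = 0.453 in limma), the fold change of IL6 being below 0 while those of IL1A, IL1B and CSF2 were above 0. Endothelial targets were near 0: VCAM1 and SELE did not exceed 0.0154 FPKM in any library.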
